A study of Mus musculus with 3 samples.

Results

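The nuclei described here were the E16.5 forelimb nuclei with the most accessible chromatin at 8 cartilage loci. They were chosen by their own counts: among the E16.5 nuclei with at least 10000 counts, each nucleus was scored by the percentage of its counts that lay in peaks over Acan, Col2a1, Col9a1, Col9a3, Matn1, Chad, Cnmd or Snorc (gene body plus 2 kb upstream), and the highest-scoring 10% were taken. This gave 1168 members of 11675 nuclei that passed the depth minimum, out of 14048 E16.5 nuclei and 42365 nuclei in the series. The other 10507 nuclei that passed served as the comparison.

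The study profiled open chromatin of sorted tdTomato-positive cells by droplet-based ATAC-seq of nuclei, using C57BL/6J embryos of the genotype Hic1CreERT2/CreERT2;Rosa26LSLtdTomato/tdTomato. All groups carried both copies of the Cre knock-in at Hic1 and of the reporter, and every dam received tamoxifen by gavage (7.5 mg in 300 uL sunflower oil) at embryonic day 10, so the reporter marks descendants of cells in which the Hic1 promoter was active around that day and not every limb cell. Each of the stages E12.5, E14.5 and E16.5 was represented by 1 library. The whole forelimb was used at the earlier stages. At E16.5 it was a segment with the elbow joint, the distal stylopod and the proximal zeugopod. Cells that stained for Ter119, F4/80, CD11b, CD31, CD117 or CD45 had been excluded by sorting. With 1 library per stage no difference between libraries has a replicate check, no test was made, and the 95% intervals given below cover counting error only. Each count is a transposase cut site and a fragment has 2, so the intervals use fragment equivalents, the counts divided by 2 and rounded up, and levels are given in CPM, fragment equivalents per 1000000 outside the gate peaks. The E16.5 library held 413425059 counts in 213613 peaks, with a median of 26694 counts per nucleus. Of the member barcodes, 47 also occurred at E14.5 and 13 at E12.5, which is 4.02% and 1.11% of the members, against 2.77% and 1.08% of the other E16.5 nuclei.

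Cartilage forms when mesenchymal cells condense and switch on SOX9, which acts with SOX5 and SOX6 on the genes of the cartilage matrix. That matrix is a meshwork of collagens II, IX and XI that holds aggrecan, a proteoglycan whose sulphated chains bind water. Growth plate chondrocytes later enlarge, switch to collagen X and prepare the matrix for bone, while those at the joint surface stay small and make lubricating proteins.

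The sequences of 9 regions are given first, to show the letters of the single regions described below. They are the central 300 bp of the peak with the highest ratio within 1 Mb of Sox9 and within the windows of Sox6, Hapln1, Matn3 and Col11a1, followed by the 4 highest ratios among autosomal peaks more than 100 kb from every gate gene. They were chosen for their ratios. The region near Sox9, that in Col11a1 and the last 4 had only 107 to 184 fragment equivalents in the other nuclei and entered the comparison, with its minimum of 500, only through the members. All are read from the plus strand of the RefSeq assembly GRCm38 (mm10). Capitals mark the SOX words ACAAAG and ACAATG, the RUNX word TGTGGT and the NFI word TTGGCA on either strand. Of these words, RUNX and NFI were marked after their frequencies had been seen.
84.1 kb upstream of Sox9, chr11:112697933-112698232: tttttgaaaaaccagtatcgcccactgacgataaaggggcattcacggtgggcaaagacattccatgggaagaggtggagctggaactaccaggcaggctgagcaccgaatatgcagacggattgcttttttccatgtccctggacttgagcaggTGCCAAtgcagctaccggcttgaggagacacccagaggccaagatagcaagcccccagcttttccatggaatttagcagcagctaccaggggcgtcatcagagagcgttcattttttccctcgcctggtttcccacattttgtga
inside Sox6, chr7:115624908-115625207: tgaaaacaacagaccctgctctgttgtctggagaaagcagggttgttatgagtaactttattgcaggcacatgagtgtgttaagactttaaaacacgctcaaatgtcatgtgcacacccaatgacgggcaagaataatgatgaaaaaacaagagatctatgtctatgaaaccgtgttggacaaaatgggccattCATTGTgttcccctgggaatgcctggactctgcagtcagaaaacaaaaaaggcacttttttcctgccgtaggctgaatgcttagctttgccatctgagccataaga
inside Hapln1, 1258 bp past its start, chr13:89540904-89541203: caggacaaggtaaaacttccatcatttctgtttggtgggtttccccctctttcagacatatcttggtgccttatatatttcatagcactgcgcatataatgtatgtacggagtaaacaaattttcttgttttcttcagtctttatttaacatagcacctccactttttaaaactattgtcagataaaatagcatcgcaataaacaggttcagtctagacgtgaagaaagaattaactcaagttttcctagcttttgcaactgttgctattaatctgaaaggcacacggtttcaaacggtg
inside Matn3, chr12:8953659-8953958: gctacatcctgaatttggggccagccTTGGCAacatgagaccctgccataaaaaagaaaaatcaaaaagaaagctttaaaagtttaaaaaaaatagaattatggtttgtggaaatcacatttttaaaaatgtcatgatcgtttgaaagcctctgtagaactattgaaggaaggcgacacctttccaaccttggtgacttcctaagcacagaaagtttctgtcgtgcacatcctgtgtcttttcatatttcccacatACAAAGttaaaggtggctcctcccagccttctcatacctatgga
inside Col11a1, chr3:114099404-114099703: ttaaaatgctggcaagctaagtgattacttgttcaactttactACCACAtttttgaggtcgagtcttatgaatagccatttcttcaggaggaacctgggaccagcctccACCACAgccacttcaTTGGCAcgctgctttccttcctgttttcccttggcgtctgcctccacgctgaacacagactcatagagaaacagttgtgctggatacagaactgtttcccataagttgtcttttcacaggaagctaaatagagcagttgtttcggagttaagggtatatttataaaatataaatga
inside Sorbs2, chr8:45564439-45564738: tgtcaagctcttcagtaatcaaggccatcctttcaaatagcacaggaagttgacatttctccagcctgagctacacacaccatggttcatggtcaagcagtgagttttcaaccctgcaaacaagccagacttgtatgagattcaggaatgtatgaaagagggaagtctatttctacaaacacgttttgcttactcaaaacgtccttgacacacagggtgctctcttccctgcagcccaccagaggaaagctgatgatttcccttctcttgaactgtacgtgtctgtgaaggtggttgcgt
inside Zfp385b, chr2:77618762-77619061: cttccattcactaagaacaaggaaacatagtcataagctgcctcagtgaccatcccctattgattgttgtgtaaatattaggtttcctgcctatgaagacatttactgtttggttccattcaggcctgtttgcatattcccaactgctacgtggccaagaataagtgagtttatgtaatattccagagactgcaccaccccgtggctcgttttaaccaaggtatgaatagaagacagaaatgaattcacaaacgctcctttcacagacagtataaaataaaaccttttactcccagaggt
upstream of Gfod1, chr13:43325665-43325964: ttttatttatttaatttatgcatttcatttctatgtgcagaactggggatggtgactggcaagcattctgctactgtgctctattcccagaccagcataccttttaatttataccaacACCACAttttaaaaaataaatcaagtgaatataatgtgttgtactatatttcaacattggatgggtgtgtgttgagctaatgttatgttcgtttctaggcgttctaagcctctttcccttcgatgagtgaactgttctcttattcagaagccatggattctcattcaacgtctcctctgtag
beyond Sucnr1, chr3:60140274-60140573: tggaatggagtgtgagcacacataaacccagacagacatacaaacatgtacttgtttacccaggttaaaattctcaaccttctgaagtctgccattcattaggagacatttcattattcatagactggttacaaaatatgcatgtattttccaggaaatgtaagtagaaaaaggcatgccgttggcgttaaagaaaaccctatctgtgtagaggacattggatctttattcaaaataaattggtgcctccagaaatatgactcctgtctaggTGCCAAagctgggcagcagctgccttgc

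The score had a long upper tail. Its median was 0.0135% of counts in the other nuclei and 0.0914% in the members, and the highest nucleus reached 0.434%. The 25th percentile of the members was 0.061%, close to the threshold. The last nucleus inside the gate had 26 gate counts of 53714, and the first outside had 14 of 28928, so both scored 0.0484% and the threshold lay on a slope and not in a gap. Members had a median of 26 gate counts and others 4. Col2a1, the gene of the main cartilage collagen, supplied 42.2% of the members' gate counts, followed by Col9a1 with 16.7% and Col9a3 with 13.4%, and each of the other 5 loci gave 4.22% to 6.86%. Counts at 4 or more of the 8 loci were found in 82.4% of the members and 12% of the others, a contrast that the selection itself fixes. The members were shallower than the rest, with a median of 24921 counts against 31980, and a larger part of their fragments lay in promoter peaks, 40.3% against 36.1%. The part of depth was looked at through the alternatives in the closing section.

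**Figure D1:**
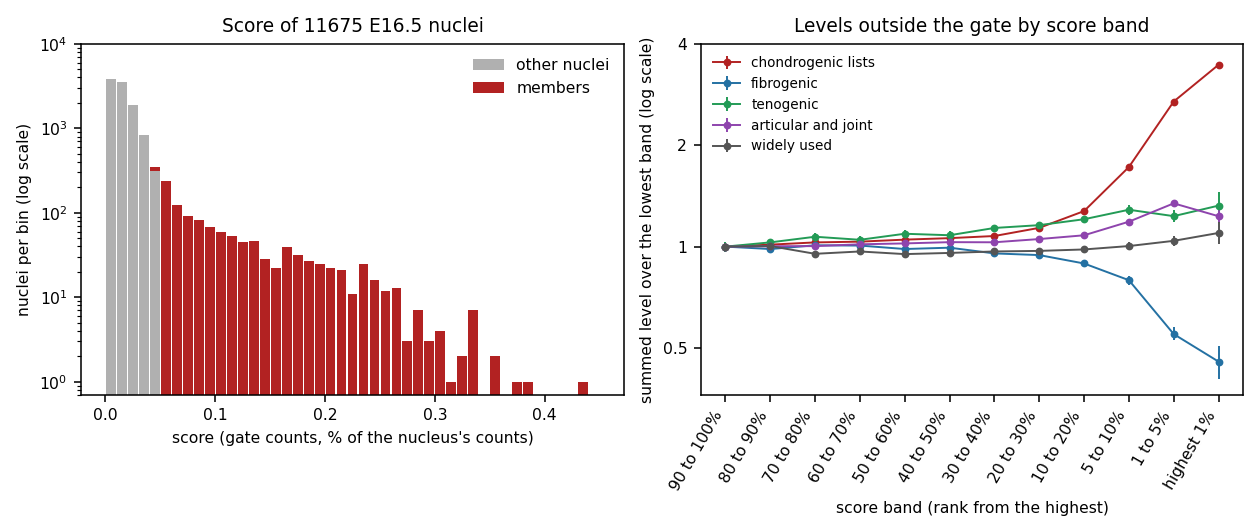
Left, number of E16.5 nuclei per score bin (log scale) against the score in percent of a nucleus's counts, with members in red above the threshold of 0.0484%. Right, summed accessibility of gene lists outside the gate in score bands, relative to the lowest band (log scale), with 95% counting intervals; the chondrogenic lists fall slowly over the lower bands, to 2433 CPM in the lowest 10%, and reach 8436 CPM in the highest 1%, while the fibrogenic list reaches 251 CPM there.

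Loci that had no part in the selection were read first through the gate itself. Each of the 8 loci was left out in turn, the nuclei were chosen again by the other 7, and the omitted locus was compared between the chosen and the remaining nuclei. All 8 were more accessible in the chosen nuclei, with a median log2 ratio of 2.45. Snorc, which encodes a small membrane proteoglycan of cartilage, had 53.3 CPM in the chosen nuclei and 6.62 in the rest, a log2 ratio of 3.01 (2.89 to 3.13). Col9a3, a chain of collagen IX, had 2.93 (2.85 to 3.01). Acan, which encodes aggrecan, was the lowest at 1.84 (1.74 to 1.94), with 64.7 against 18.1 CPM. Col2a1 had 380.0 against 72 when it no longer counted in the score, a log2 ratio of 2.40 (2.36 to 2.44). Leaving out Col2a1 changed the membership most, and 82.2% of the members were then chosen again, compared with 91.4% to 97.2% for the other 7 loci.

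**Figure D2:**
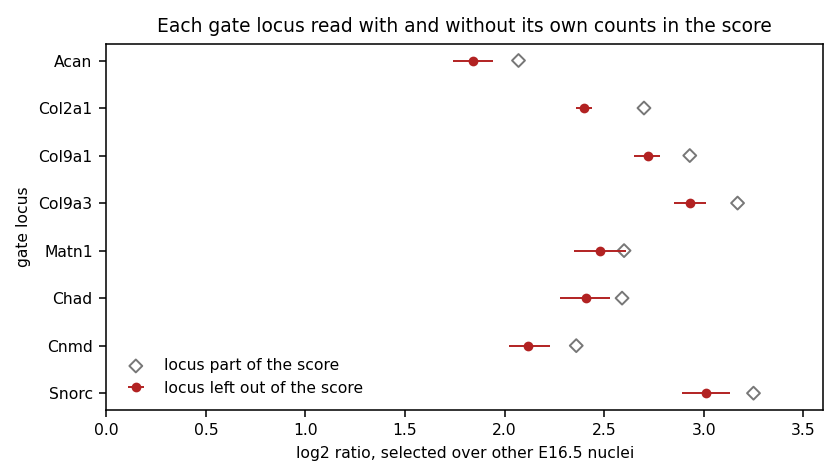
Log2 ratio of accessibility at each gate locus between the selected nuclei and the other E16.5 nuclei. Open diamonds use the full score and are fixed by the selection; red points, with 95% counting intervals, use a score without that locus and lie between 1.84 at Acan and 3.01 at Snorc.

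The label was then set beside 40 chondrogenic genes outside the gate, in 5 lists by role. The lists were chosen with earlier results of these data known, so their values describe the members and do not test the label. Their median log2 ratio between members and others was 1.03, against 0.10 over all 15494 genes compared, and 26 of the 40 were at least 1.5-fold higher while none was 1.5-fold lower. Genes entered the comparison with at least 1000 fragment equivalents in members and others together. Of these, 4.27% were 1.5-fold higher (662) and 4% were 1.5-fold lower (619). Cytl1 and Ucma lay below that minimum, and of the other 38 chondrogenic genes 24 were 1.5-fold higher. When the ratios were instead centred on the median gene, these became 461 higher and 888 lower, and the chondrogenic median 0.93. Ratios below are as measured, so the shift of 0.10 applies to each. Most genes compared were above 0: ranked from the highest ratio, Tcf7l2 with a log2 ratio of 0.00 stood at 10178 of 15494. Of 8 widely used reference genes, 7 had a ratio above 0, and for 5 the whole interval lay above 0. Of the 40 chondrogenic genes, 39 had a ratio above 0, and for 38 the whole interval lay above 0. The exception below 0 was Epyc, a small leucine-rich proteoglycan of growth plate cartilage, with 29.4 CPM in members and 39.3 in others (log2 ratio −0.42, −0.55 to −0.29). Fewer open nuclei among the members and weaker opening in each cannot be told apart in these sums.

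All 3 genes of the SOX trio were more accessible in members. In its RNA data the study lists Sox5 and Sox6, with Dkk3, as markers of its perichondrial branch, so these genes are not particular to chondrocytes there. Sox9, the master regulator, had 93.4 CPM in members and 53.2 in others, 1.75-fold higher. Sox5 had 338 against 152, 2.23-fold higher, and its partner Sox6 had 392 against 170.0, 2.31-fold higher. The ratio of Sox9 was the smallest of the trio, with a log2 ratio of 0.81 (0.73 to 0.89) compared with 1.15 (1.11 to 1.2) for Sox5 and 1.21 (1.17 to 1.24) for Sox6. Thinned to 5000 fragment equivalents in each nucleus, a fragment in the Sox6 window was found in 81.9% of members (79.6% to 84.1%) and 52.3% of others (51.4% to 53.3%), and in the much shorter Sox9 window in 37.5% (34.7% to 40.3%) and 22.9% (22.1% to 23.7%). Unthinned, these shares were 94.8% and 82.3% for Sox6 and 69.1% and 53.9% for Sox9.

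The cartilage collagens outside the gate were all at least 1.5-fold higher. Col11a2, a chain of the collagen XI that seeds cartilage fibrils, had 120.0 CPM in members and 21.2 in others, 5.64-fold higher. Its main peak covers the start of the gene, has a log2 ratio of 2.53, and also reaches Rxrb, so the pair cannot be separated there. Col9a2, the remaining chain of collagen IX, was 3.09-fold higher with 66.3 against 21.5. Col11a1 was 2.09-fold and Col27a1, a fibrillar collagen of the growth plate, 1.71-fold higher. These 4 genes thus ranged from a log2 ratio of 0.77 to 2.5.

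Among 12 cartilage matrix proteins, 9 were at least 1.5-fold higher. Cytl1, a secreted factor made by chondrocytes, had the highest ratio of the list but few fragments, 7.04 CPM against 1.06 (log2 ratio 2.73, 2.39 to 3.06). Scrg1, a small secreted protein of cartilage, had 58.8 against 9.54 and ranked 2nd of all genes compared. Matn3, an adaptor that links collagen fibrils to aggrecan, had 109 against 22.9, 4.76-fold higher. Susd5 was 4.58-fold higher, and Hapln1, the link protein that fastens aggrecan to hyaluronan, had 99.4 against 28.8 and was 3.45-fold higher. Ucma, a growth plate protein, was 2.71-fold, Comp, a pentameric matrix bridge, 2.40-fold, Mia 2-fold and Matn4 1.99-fold higher. Prelp and Chadl, both leucine-rich repeat proteins, were 1.46-fold higher each and missed the threshold.

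Genes of proteoglycan synthesis were divided. Papss2, which makes the sulphate donor, had 109 CPM in members and 34 in others, 3.22-fold higher. Xylt1, which starts a chain on the core protein, was 2.60-fold, Extl1, of the exostosin family that builds heparan sulphate, 2.33-fold, Csgalnact1, which commits the chain to chondroitin sulphate, 2.28-fold and the sulphotransferase Chst11 1.75-fold higher. The other 4 of the 9 lay between 1.25-fold and 1.30-fold: the sulphate transporter Slc26a2, the polymerising enzymes Chsy1 and Chpf, and Ugdh, which supplies the sugar precursor.

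Of 12 signalling genes, 5 reached 1.5-fold. Wwp2, a ubiquitin ligase gene with an intronic cartilage microRNA, had 472 CPM in members and 84.5 in others, a log2 ratio of 2.48 (2.45 to 2.52). The calcium channel gene Trpv4 was 2.64-fold, the Wnt antagonist Frzb 2.32-fold, Edil3 2.13-fold and the FGF receptor-like gene Fgfrl1 2.01-fold higher. The receptors Fgfr3 and Pth1r, which restrain growth plate chondrocytes, were 1.43-fold and 1.42-fold higher, and Fzd9 1.44-fold. Nog, Bmpr1b and Ptch1 lay between 1.15-fold and 1.19-fold, and Gli1, a readout of hedgehog signalling, at 1.06-fold had an interval that included 0 on the log2 scale (−0.01 to 0.17).

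**Figure D3:**
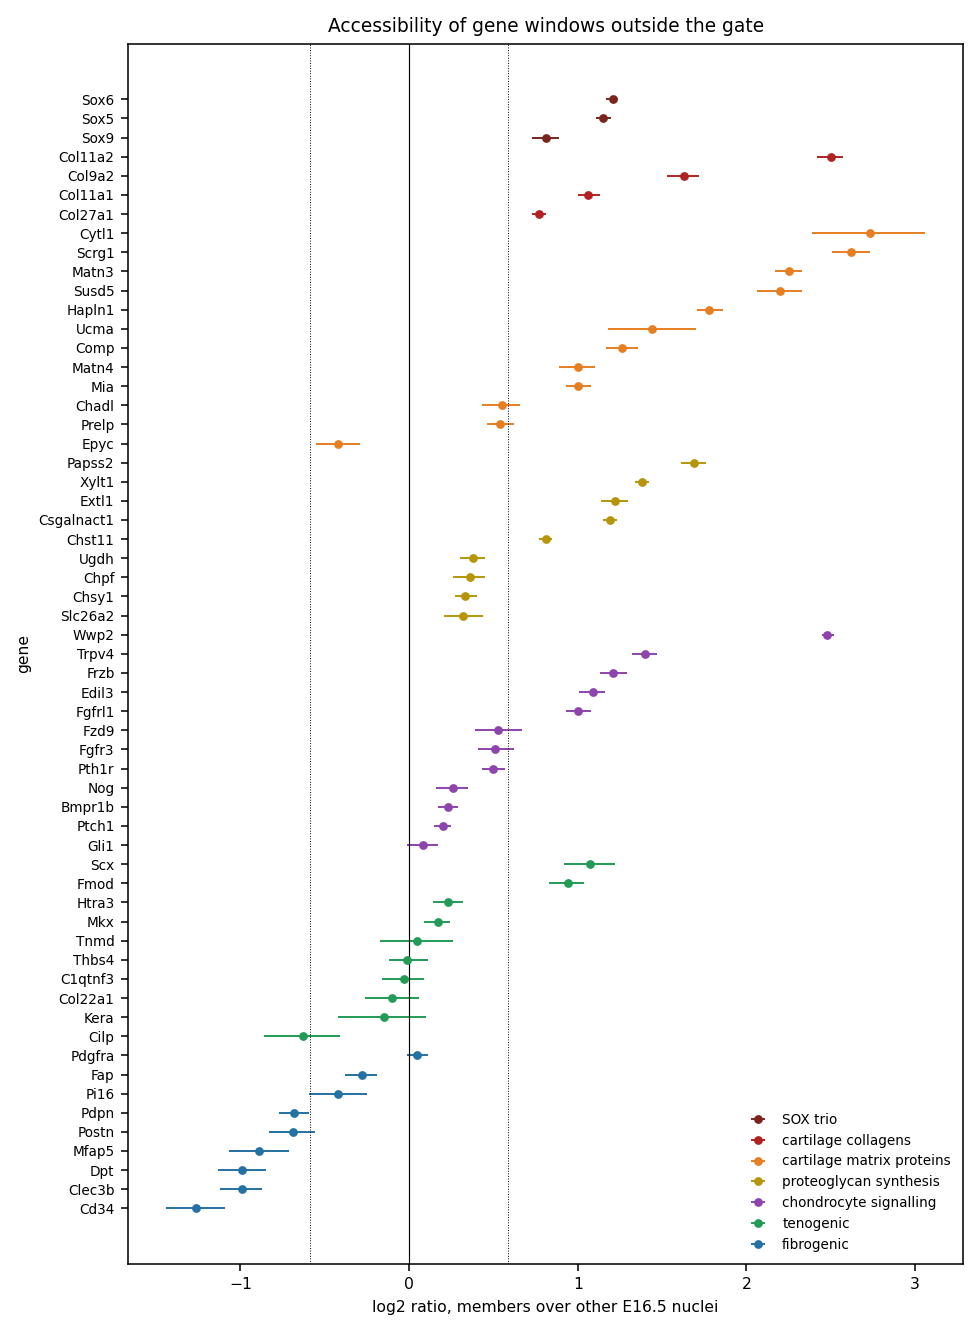
Log2 ratio of accessibility between members and other E16.5 nuclei for 59 genes outside the gate in 7 lists, with 95% counting intervals; dotted lines mark 1.5-fold in either direction. The 5 chondrogenic lists lie to the right of 0 except Epyc, and 8 of 9 fibrogenic genes lie to the left.

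Other skeletal lists were less uniform. Among 12 further skeletal factors, Foxa2 was 1.93-fold and Nkx3-2, which keeps chondrocytes immature, 1.91-fold higher, and the other 10 did not reach 1.5-fold in either direction. Runx2, the driver of chondrocyte enlargement and of osteoblasts, was level over its whole window (259 against 258 CPM), and of its 25 peaks compared 3 were at least 2-fold higher and 8 at least 2-fold lower, where 5.68% and 19.9% of all peaks compared were. Pax1 was the lowest of that list at 0.859-fold. For hypertrophic and bone genes, 4 of the 11 with a value were 1.5-fold higher and 1 lower. Only 6 of the 11 were autosomal and passed the minimum of 1000 fragment equivalents, and of these Ihh alone was 1.5-fold higher. Phex, on the X chromosome, passed the minimum but was not among the 6, and stood at 0.86-fold. Ihh, secreted by prehypertrophic chondrocytes, had 22.3 CPM against 13.6. Below the minimum, Panx3 had 5.32 against 2.78 and Spp1, which encodes osteopontin, 7.38 against 2.43. Ibsp was the highest and Bglap the lowest of the list, and both rest on almost nothing, 15 and 2 fragment equivalents in all members, so that the interval of Bglap ran from −5.01 to −0.05 on the log2 scale. No peak had been called over Col10a1 or Mmp13, the defining genes of hypertrophic cartilage. Of 10 articular and joint genes, Erg, a transcription factor of articular chondrocytes, was 1.94-fold higher with 282 against 145. The lubricin gene Prg4 was the lowest at 0.951-fold, and the other 8 did not reach 1.5-fold. Of 9 perichondrial genes, Thbs3 was 1.52-fold higher, Dkk3 1.36-fold, and Nell2 was the lowest at 0.57-fold.

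The fibroblast genes went the other way. Of 9 fibrogenic genes, 6 were at least 1.5-fold lower in members, none was 1.5-fold higher, and the median log2 ratio was −0.69. Cd34 was the lowest, with 16.5 CPM in members and 39.6 in others (−1.26, −1.44 to −1.09). Dpt, the dermatopontin gene that marks fibroblasts of many tissues, had 24.2 against 48.1, and Clec3b 30.8 against 61.4. Pdgfra, a receptor of the mesenchyme at large, was the highest at 130.0 against 125. The dermal fibrogenic list had a median of −0.17, with Col7a1 lowest at −1.07 and Lef1 highest at 0.27. Among 10 tenogenic genes the median was 0.02, but Scx, the tendon transcription factor, was 2.10-fold higher (25.2 against 12) and the small proteoglycan gene Fmod 1.91-fold higher (48.4 against 25.3), and Cilp was 0.645-fold. The single Scx peak also reaches Bop1. Mkx, another tendon transcription factor, had a log2 ratio of 0.17 (0.09 to 0.24) and Htra3 0.23 (0.14 to 0.32). The other 5 genes of the list, among them the tendon markers Tnmd (0.05), Thbs4 (−0.01) and Kera (−0.15), had intervals that included 0. Hic1 itself, read at a locus that carries the knock-in in every cell, had 76.2 against 94.8 (−0.32, −0.40 to −0.24). The 9 progenitor genes, Hic1 among them, had a median log2 ratio of 0.28, and 7 of them were above 0. Intervals lay wholly above 0 for 6 and wholly below 0 for 2. Snai1 was the highest at 1.63-fold and Osr1 the lowest at 0.772-fold.

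As lists, markers of other cell types, some of which the sort had excluded, differed little between the groups or were lower in members. Their part in the results was not tested. The summed level of 5 endothelial genes was 124 CPM in members and 181 in others, all 5 with ratios below 0, led by Tek at −1.10 and with Emcn the highest at −0.20. For 5 epithelial genes the sums were 74 and 126, from −1.08 at Trp63 to −0.10 at Epcam. Gata1 overlapped no peak used here, and for the other 4 blood genes they were 85.2 and 84.3, from −0.38 at Csf1r to 0.38 at Ptprc. For 6 myogenic genes they were 69.6 and 83.8, from −0.53 at Myog to 0.50 at Myf6. For 7 pericyte genes they were 254 and 307, from −0.96 at Abcc9 to 0.29 at Mcam, and for 4 perineural genes 175 and 164, from −0.24 at Cldn1 to 0.22 at Slc2a1. The 4 Schwann cell genes summed to 72.2 and 68.5, from −0.19 at Erbb3 to 0.90 at Sox10, where members had 11.1 and others 5.96. The 8 widely used genes, given as a reference, summed to 533 and 506, and ranged from −0.16 at Gapdh to 0.23 at Tbp and Rplp0.

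Members differed among themselves along the score. The chondrogenic lists summed to 8436 CPM in the highest-scoring 1% of nuclei (8274 to 8600), 6561 in the next 4% (6497 to 6626) and 4193 in the remaining members (4153 to 4233). Just outside the gate, in the band from 10% to 20%, they summed to 3102 (3078 to 3127), and from there the sum declined slowly to 2433 (2407 to 2460) in the lowest 10%. The gate therefore holds a steep gradient, and nuclei just outside it were still above the floor of the library. Col11a2 followed the same course, at 249, 171 and 73.5 CPM in the 3 bands of members and 34.5 in the band outside. Wwp2 had 881, 671 and 305 and then 144. The fibrogenic list ran in the opposite direction, from 251 in the highest 1% to 303, 438 and, outside, 491, and Cd34 was at 2.46 in the highest 1% and 21.7 in the lower members. Scx had no such slope inside the gate, with 25.4, 26 and 24.7, and 19.1 outside it. No interval was made for single genes in these bands, and the level of Cd34 in the 117 nuclei of the highest 1% rests on few fragments. Median depth also moved along the score, from 19249 counts in the highest 1% to 23716 and 28048 in the other member bands and 29970 outside.

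A like division was seen when nuclei were grouped without the gate. Clusters were made from 185994 autosomal peaks more than 100 kb from every gate gene, and 1 of 7 clusters held 923 of the 1168 members, 79% (76.6% to 81.3%), although it held only 14.7% of all nuclei. Members made up 53.6% of that cluster (51.2% to 56%) and between 1.44% and 4.19% of each of the other 6. The 245 members elsewhere had a median of 20 gate counts against 28 for those inside it. Against the other nuclei elsewhere, the median log2 ratio of the chondrogenic lists was 1.23 in members inside the cluster, 0.49 in members elsewhere and 0.44 in the 799 nuclei of the cluster that the gate had not taken. Matn3 had 127, 57.5 and 50.7 CPM in these 3 groups and 20.8 in the remaining 9708 nuclei. Because the clusters were built from peaks that include these genes, the values describe the groups and test nothing. With every peak within 100 kb of a chondrogenic gene removed as well, the leading cluster still held 78.1% of members.

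Nuclei high at other lists overlapped the members to different degrees. When the highest 10% of nuclei were taken by each list at 5000 fragment equivalents, 44% of the members were also in the cut on the SOX trio (41.1% to 46.9%), 19.9% in that on the articular and joint list (17.7% to 22.4%), 14% in the tenogenic cut (12% to 16.1%) and 4.02% in the fibrogenic cut (2.97% to 5.32%). The cut on the widely used genes shared 10.6% of the members (8.91% to 12.5%), which is close to the 10% that each cut takes from all nuclei.

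Among the 15494 genes that passed the minimum, which leaves out Cytl1, the 15 with the highest ratios were Ehf, Scrg1, Cpa1, Col11a2, Wwp2, Igsf5, Zfp648, Scin, Il25, Matn3, Susd5, BC053393, Cmtm5, Fam180a and Krt87, with log2 ratios from 2.64 down to 2.13. Ehf, a transcription factor gene known from epithelia, led with 55.4 CPM against 8.89, and the peak that holds 42.1% of its member fragments lies away from any promoter. At Igsf5 and Scin the main peak was also away from promoters, with 414 and 194 fragment equivalents in the others and log2 ratios of 3.27 and 4.87. Of the 15 genes, Cpa1, Igsf5 and Krt87 had fewer than 1000 fragment equivalents in the others alone (991, 845 and 768). Il25 and Cmtm5 share their main peak and count as a single signal. Accessibility in the window of a gene is no measure of its expression. The 10 lowest were Skint1, Olfr969, Olfr957, Gm609, Ly6a, Csta1, E030025P04Rik, Serpinb7, Glrp1 and Olfr432, from −2.12 to −1.54, all below 6 CPM in members. Ly6a, which encodes the stromal marker Sca-1, had 1.72 against 5.51. Skint1, Csta1 and Olfr432 were, with the epithelial gene Krt5, among the top genes of 1 of the 7 clusters. That cluster held 1053 nuclei, 9.02% of those that passed depth, but only 29 members. Such nuclei were therefore part of the comparison. Ly6a and Glrp1 were among the top genes of other clusters outside the leading one. How far these clusters set the low ratios was not tested. Genes close to the gate genes did not stand out: the median log2 ratio was 0.06 for 210 genes within 1 Mb of a gate gene and 0.10 for 14755 genes more than 5 Mb away or on another chromosome.

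Among single peaks more than 100 kb from every gate gene, 84466 were compared, of which 5.68% were at least 2-fold higher in members (4794) and 19.9% at least 2-fold lower (16816). Centred on the median peak, whose log2 ratio was −0.24, these became 6736 higher and 9332 lower. The lower count moved with the selection, to 1661 for the highest-scoring 20% of nuclei, where 3329 peaks were higher, and to 6525 with thinned scores. A peak entered with at least 500 fragment equivalents in members and others together, which a peak high in members can reach through the members. With the same minimum in the others alone, a setting added after the data were seen, 79015 peaks remained, of which 3261 (4.13%) were higher, with a highest log2 ratio of 4.35, and 16269 (20.6%) lower. Of the 4794 higher peaks 4.23% lay in promoters, next to 16.6% of all 84466 compared and 1.16% of the lower peaks. Promoter peaks were thus scarce among the calls in either direction. A further 52.3% of the higher peaks lay elsewhere in genes and 43.5% outside genes, next to 41.5% and 41.9% of all compared. With the minimum in the others alone the promoter share was 5.24% of higher peaks, next to 17.6% of the 79015. The 10 highest peaks had log2 ratios from 5.24 to 6.02, and none was a promoter. All 10 passed the minimum only through the members, so that their ratios describe them and support nothing further. The first lies inside Sorbs2 and had 41.5 CPM in members and 0.637 in others. The second lies inside Zfp385b with 36.2 against 0.738, and the third and the fourth, 21.6 kb upstream of Gfod1 and 58.6 kb downstream of the Sucnr1 start, had 30.3 against 0.642 and 24.3 against 0.568. The other 6 were 3.5 kb upstream of Gjc3, within Elmo1, within Gm20388, within Btbd3, 21.8 kb upstream of Foxa2 and within Msi2.

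The window of Sox9 holds 3 peaks, and 307 peaks had been called within 1 Mb of its start. Of the 99 compared, 23 (23.2%) were at least 2-fold higher in members and 6 (6.06%) at least 2-fold lower, next to 5.68% and 19.9% of all peaks. With the minimum in the others alone these became 12 and 5 of 82. The highest, 84.1 kb upstream, had 26.4 CPM against 0.876, a log2 ratio of 4.92 (4.66 to 5.18). The next, 303.1 kb downstream, had 53 against 2.47 (4.43, 4.26 to 4.59). Both had fewer than 500 fragment equivalents in the others alone (165 and 465). Further higher peaks lay 794.2 kb upstream (24.3 against 2.10, 395 in the others) and 483.1 kb upstream (43.7 against 4.16, log2 ratio 3.39), the highest of the 82. Within Sox5, 5 of 20 peaks were 2-fold higher, and 5 of 18 with the minimum in the others alone. Within Sox6 it was 8 of 23 (6 of 19), led by one with 39.2 against 4.28. At Wwp2, 7 of 12 were 2-fold higher and 1 lower (5 and 1 of 10), at Erg 9 of 19 and 2 lower (8 and 2 of 17), at Xylt1 9 of 20 (4 of 13) and at Chst11 3 of 22 (2 of 19). At Col11a1 a single peak, 69 kb into the gene, had 24.2 against 0.977 (4.63, 4.38 to 4.89) and passed only through the members, while the promoter peak had 59.7 against 33.8 (0.82, 0.72 to 0.91).

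**Figure D4:**
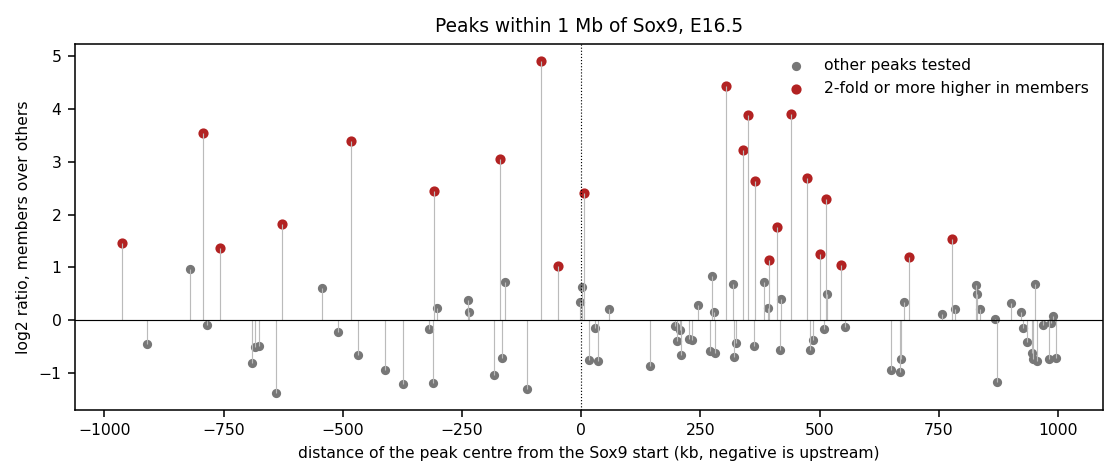
Log2 ratio between members and other E16.5 nuclei for 99 peaks within 1 Mb of the Sox9 start, by the distance of the peak centre from the start in kb. The 23 red peaks are at least 2-fold higher in members and reach 4.92 at 84.1 kb upstream; 12 of them had at least 500 fragment equivalents in the others alone.

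Words bound by transcription factors were counted in 300 bp windows at the centre of each peak, on both strands, with matches allowed to overlap each other. The SOX word ACAAAG occurred in 21.5% of the windows of higher peaks (20.3% to 22.7%) and in 21.7% of all windows, and the second form ACAATG in 9.89% (9.06% to 10.8%) and 13.2%. With the minimum in the others alone the shares were 21.4% (20% to 22.9%) against 21.6% and 9.44% (8.46% to 10.5%) against 13.2%, so neither word was more frequent in higher peaks than in all peaks compared. The NFI word TTGGCA occurred in 28.3% (27.1% to 29.6%) against 21% of all windows, the NFAT word GGAAAA in 33.9% (32.6% to 35.3%) against 28.6%, the RUNX word TGTGGT in 24.6% (23.4% to 25.8%) against 19.7%, and the forkhead word TGTTTAC in 5.3% (4.68% to 5.97%) against 4.08%. In lower peaks these 4 words stood at 25.9%, 31.1%, 21% and 5.06%, so the forkhead word was about as frequent there, and the SOX words at 25.8% and 19%. With the minimum in the others alone the higher windows had 27.1% against 20.8% for NFI, 33.3% against 28.4% for NFAT, 24% against 19.4% for RUNX and 4.97% (4.25% to 5.77%) against 4.01% for the forkhead word. Outside promoters NFI stood at 28.6% against 23.1%, RUNX at 24.7% against 21.2% and AP-1 at 13.5% against 15.4%. The SOX words were less frequent in higher windows there. ACAAAG stood at 21.7% (20.5% to 22.9%) against 23.4% and ACAATG at 10.1% (9.21% to 11%) against 14.6%. The E-box CATCTG was less frequent, 21.8% (20.6% to 23%) against 27%, and stood at 38.5% in lower peaks. AP-1 (TGANTCA), TEAD (GGAATG) and homeobox (TAATTA) words occurred in 13.2%, 19.1% and 7.45% of higher windows, in 13.6%, 18.6% and 6.89% of all windows and in 20%, 23.5% and 9.86% of lower windows. Median GC content was 48.3% in higher, 44% in lower and 48% in all windows. A match is a description of the letters and shows no binding.

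The rule was applied in the same way to the earlier libraries, each on its own peaks. At E14.5 it took 840 of 8397 nuclei, with a median of 10 gate counts in members and 2 in others, and at E12.5 267 of 2664, with 10 and 4. The median log2 ratio of the chondrogenic lists was 0.37 at E14.5 and 0.08 at E12.5. Of the 39 and 40 listed genes with a value, 12 and 3 reached 1.5-fold. Of all genes compared, 0.506% and 0.0855% did so. These shares cover genes that passed the minimum, while the 12 and 3 also hold genes with few fragments, such as Ucma at E14.5 (5.45 against 3.23 CPM). Of the 39 genes with a value in every library, 31 were ordered E12.5, E14.5, E16.5 from the lowest to the highest ratio. The same order was not counted over all genes, so the 31 describe the listed genes alone. The gate loci, whose ratios the selection fixes, had medians of 1.67, 1.84 and 2.65 in the same order of stages. Sox9 had a log2 ratio of −0.03 (−0.27 to 0.20) at E12.5 and 0.17 (0.04 to 0.30) at E14.5. Col11a2 had 0.14 (−0.36 to 0.59) and 1.47 (1.31 to 1.63), and Wwp2 0.79 (0.65 to 0.93) and 1.42 (1.35 to 1.5). The fibrogenic median was 0.04 at E12.5 and −0.28 at E14.5. Stage cannot be told apart here from depth, dissected tissue, digestion or peak list, which differed between some or all of the libraries.

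**Figure D5:**
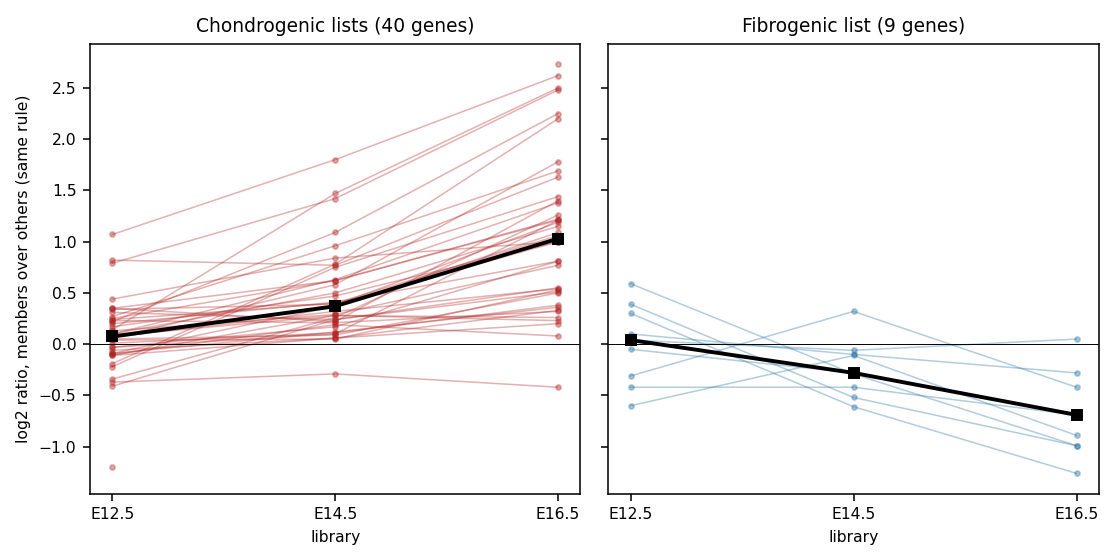
Log2 ratio between nuclei selected by the same rule and the other nuclei of each library, for the 40 chondrogenic genes (left) and the 9 fibrogenic genes (right). Thin lines are genes with a value in neighbouring libraries and black squares are medians, 0.08, 0.37 and 1.03 on the left.

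Regions that set members apart at E16.5 mostly did so in the same direction at E14.5, in a library that had no part in choosing them. Of the 4794 higher peaks, 83.5% overlapped an E14.5 peak, next to 87.2% of peaks that were neither higher nor lower at E16.5, and 93.7% of those with a value had a ratio above 0 there (median log2 ratio 0.86), compared with 44.8% of peaks that were neither. Of the 3261 higher peaks with the minimum in the others alone, 93.6% of those with a value were above 0 (median 0.81), compared with 44.5%. Of the 662 higher genes, 508 were compared at E14.5 and 92.5% had a ratio above 0, with a median of 0.29, compared with 53.8% of genes that were neither. At E12.5 the higher peaks had a median of 0.29 and 69.3% above 0, compared with 46.9% of peaks that were neither, and with the minimum in the others alone the higher peaks had 0.27 and 69.1%. The gate used the same 8 genes in each library.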

How the data were processed

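Single-nucleus ATAC-seq of sorted forelimb cells had been processed by the authors with Cell Ranger ATAC (version 1.1.0 in the submitters' processing notes; in the file headers 1.2.0 for the E16.5 library and 1.0.1 for both earlier ones) against mm10. The counts as deposited give the transposase cut sites of each nucleus in each peak, without normalisation, and every library has its own peak list. The members and all gene lists were chosen with earlier results of these data known.

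From the counts, fragment equivalents (counts divided by 2, rounded up) were summed over members and over the other nuclei, in peaks that touch a gene body of the GENCODE vM21 basic annotation or its 2000 bp upstream, per 1000000 (CPM) outside the 47 gate peaks. Genes with at least 1000 fragment equivalents on autosomes that share no peak with a gate gene were compared, and peaks with at least 500 more than 100 kb from each gate gene. A promoter spanned 1000 bp before and 100 bp after a start. Ratio intervals are exact conditional binomial, shares Clopper-Pearson and levels exact Poisson, all at 95%. With 1 library per stage, no test was made and a call is a fold of 1.5 for genes and 2 for peaks. Clusters were 7 k-means groups (10 starts) of latent semantic components of peaks found in at least 1% of nuclei, without the 2 of 30 that followed depth. No doublet caller was run; the deepest 5% of nuclei were left out as an alternative. Ratios and calls were also run on simulated gene sums with known folds. These held counting error only, with no single nuclei, no selection by score and no spread between libraries. Python 3.11, numpy, scipy and scikit-learn were used. Every gene of the SOX and chondrogenic lists, the highest and lowest gene of each other list and genes the study names for chondrogenic or perichondrial cells, the 15 highest and 10 lowest genes and the 10 highest peaks were named by rule; further genes and peaks were named after their values were seen. The sequence of 1 further region is not reported here.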

Additional observations from a re-analysis of the deposited data

Results flagged for a closer look

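Of the listed genes outside the gate, 5 had a ratio between members and others at E16.5 and in an earlier library with opposite signs and counting intervals, rounded to 2 decimals, that excluded 0 in both. Tgfbi, Sox11 and Myog fell short only by this rounding, each with a bound at the earlier stage that rounds to 0. Tgfbi had 0.30 (0.22 to 0.39) at E16.5 and −0.19 at E12.5. Sox11 had 0.32 (0.24 to 0.40) at E16.5 and −0.12 at E14.5. Myog, with only 51 fragment equivalents in members at E16.5, had −0.53 (−0.97 to −0.12) there and 0.42 at E14.5. Each of these results rests on 1 library per stage, and the differences between stages were not tested. Fgfr3, an FGF receptor that restrains growth plate cartilage, had a log2 ratio of 0.51 (0.41 to 0.62) at E16.5 and −0.41 (−0.76 to −0.07) at E12.5. Pi16, a fibroblast marker, had −0.42 (−0.59 to −0.25) at E16.5 and 0.32 (0.06 to 0.56) at E14.5. The Wnt target Axin2 had 0.08 (0.01 to 0.15) at E16.5 and −0.18 (−0.29 to −0.08) at E14.5. The median gene stood at 0.10 at E16.5 and 0.01 at E14.5, so Axin2 lay below it in both libraries. Lef1, another Wnt target, had 0.27 (0.20 to 0.33) at E16.5 and −0.28 (−0.48 to −0.08) at E12.5. The ribosomal gene Rplp0 had 0.23 (0.10 to 0.36) at E16.5 and −0.23 (−0.44 to −0.03) at E14.5, so differences of this size also occurred at a gene used as a reference.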

How the results depend on the processing

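The 26 chondrogenic genes called 1.5-fold higher stayed above 0 in each of the alternatives run on the E16.5 library. This does not extend to the earlier libraries. With thinned scores, 37 of 39 chondrogenic genes were above 0 at E14.5 and 23 of 40 at E12.5. With 1 library per stage the intervals hold no biological spread. The highest-scoring 5% gave a chondrogenic median of 1.41, 1343 genes higher and 1322 lower, and 96.2% of members in the leading cluster, and the highest 20% gave 0.67, 258, 133 and 51.8%. A minimum of 20000 counts gave 0.95, 412 lower and 74%. Scores thinned to 5000 fragment equivalents gave 0.90, 433 higher, 337 lower and 69.1%, and 0.28 at E14.5 and 0.07 at E12.5. Selecting 10% within each of 10 depth classes gave 0.93 and 75.7%, and equal weight for each locus 74.9%. Leaving out 1 gate locus gave medians of 0.98 to 1.05, 613 to 664 higher, 541 to 616 lower, 4566 to 4772 peaks and 74.2% to 78.8%. Promoter peaks alone gave 0.76 and 275 lower, and centring on the median gene 0.93. A gene minimum of 200 gave 1030 lower, and of 5000 gave 375 higher and 266 lower. Peak minimums of 200 and 2000 gave 10616 and 535 higher peaks, and comparison with the lowest-scoring 50% gave 2978. Lower peaks numbered 31419 for the highest 5%, 1661 for the highest 20%, 10077 with 20000 counts, 6525 with thinned scores, 10516 within depth classes, 10391 against the lowest-scoring 50%, 34809 and 2628 at peak minimums of 200 and 2000, and 9332 when centred. Minimums in the other nuclei alone gave 3261 higher peaks and 632 higher genes. With 10 clusters the share was 65.2%. Genes over 5 Mb from each gate gene (1), members with 4 or more loci (1.08), clusters without chondrogenic peaks, centring on the median peak, minimums in the other nuclei alone, motif windows outside promoters and the thinned earlier libraries were added after seeing the data. Apart from the minimums, which change how many features are compared, the cause was not tested. No paired analysis was possible because each stage has 1 library.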
